A study of Homo sapiens with 17 samples.

Results

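Forkhead genes encode transcription factors that bind DNA through a shared winged-helix domain, and 9 of them that act in embryonic patterning were followed across naive and primed PSCs. They are *FOXC1*, *FOXF2* and *FOXQ1*, neighbours on chromosome 6, *FOXF1*, *FOXC2* and *FOXL1*, neighbours on chromosome 16, and *FOXD3*, *FOXB1* and *FOXE1*. The members were meant to be found by gene names in the promoter interaction lists, but these lists hold no names. Each member was therefore placed by its GENCODE release 44 transcript starts, with 1000 bp upstream, on the HindIII fragments of GRCh38 that the lists use. By this route 7 of the 9 genes had a baited fragment in the lists, of 13393 protein-coding genes and 15982 baited fragments in all. *FOXQ1* and *FOXD3* had no fragment in either list, so they were followed by H3K4me1 only, and whether they were baited was not examined.

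Both cell types were cultures of H9 NK2, an established line of human embryonic stem cells. Naive PSCs, which resemble the pre-implantation epiblast, were kept in N2B27-based medium with PD0325901, CHIR99021, LIF and Go6983, and primed PSCs, which resemble a later epiblast, in TeSR-E8. Promoter Capture Hi-C (PCHi-C) gave 1 list per cell type, in which the authors had combined 2 replicates, so no difference between the lists has a replicate check and all intervals given for them cover counting error only. CUT&RUN for H3K4me1 gave 2 naive libraries and 3 primed ones, and Hi-C 1 library per cell type. All results come from 1 line, and cells were measured in bulk, so fewer marked cells and less mark per cell cannot be told apart.

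Developmental promoters of this kind often lie in CpG-rich DNA and are silent targets of Polycomb complexes in pluripotent cells, a state whose marks were not analysed here. H3K4me1, methylation of histone H3 at lysine 4, is found at enhancers and on the flanks of promoters. The CHiCAGO score of a fragment pair rises with its excess of reads over what its distance predicts, and only pairs with a score of at least 5 were listed.

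The naive H3K4me1 replicates held 21785481 and 6743809 reads and the primed ones 8853586, 7892017 and 26596518, as worked out from the value of an empty 500 bp tile, which stands at a log2 RPM between -4.89 and -2.91 depending on depth. The cell identities were checked on the H3K4me1 of baited fragments of marker genes. Of 5 naive markers with a bait, 3 were lower in primed PSCs, *DPPA5*, *DPPA3* and *SUSD2*, and 2 were not called. Of 7 primed markers with a bait, 6 were tested, and 1 of these, whose name is not reported here, was lower in primed PSCs. The other 5, *ZIC2*, *OTX2*, *DUSP6*, *SFRP2* and *SALL2*, were not called. On these fragments the mark thus followed the labels for part of the naive list and not for the primed list.

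The promoters themselves differ in CpG content, which is shown here for 3 genes with a contact over 1 Mb in primed PSCs. The 250 bases before the RefSeq start (GRCh38.p14) are given 5′ to 3′ with CG dinucleotides in capitals, at chr6:1389326-1389575 for *FOXF2*, chr6:1609665-1609914 for *FOXC1* and chr9:97852976-97853225 for *FOXE1*, all on the plus strand.
FOXF2: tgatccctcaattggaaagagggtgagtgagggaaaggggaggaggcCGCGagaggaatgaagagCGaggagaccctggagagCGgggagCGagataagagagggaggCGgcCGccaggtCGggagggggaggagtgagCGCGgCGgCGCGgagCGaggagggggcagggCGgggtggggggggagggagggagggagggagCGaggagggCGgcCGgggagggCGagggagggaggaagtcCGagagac
FOXC1: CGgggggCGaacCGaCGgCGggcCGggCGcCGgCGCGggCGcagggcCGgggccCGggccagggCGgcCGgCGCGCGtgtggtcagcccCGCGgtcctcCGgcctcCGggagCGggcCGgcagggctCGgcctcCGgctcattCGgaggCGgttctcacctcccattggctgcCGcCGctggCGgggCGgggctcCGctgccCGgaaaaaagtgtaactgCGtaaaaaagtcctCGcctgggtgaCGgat
FOXE1: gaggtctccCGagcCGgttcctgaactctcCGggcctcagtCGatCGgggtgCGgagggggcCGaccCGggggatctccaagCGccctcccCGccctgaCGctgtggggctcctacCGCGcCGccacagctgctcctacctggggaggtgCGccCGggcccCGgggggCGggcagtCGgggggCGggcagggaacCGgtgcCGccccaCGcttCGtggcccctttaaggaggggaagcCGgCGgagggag
The *FOXC1* promoter held 37 CG dinucleotides, *FOXE1* 26 and *FOXF2* 20, against a median of 11 over 35116 promoters of the same length. At least as many as in *FOXE1* were found in 19.6% of all promoters, and at least as many as in *FOXF2* in 32.4%. *FOXQ1* held 29 and *FOXD3* 24, while *FOXB1*, with 8, was below the median. The forkhead core TGTTTAC, searched on both strands, was in none of these 6 promoters and in 2.98% of all promoters. RefSeq promoter sequences were used for these 6 of the 9 genes, the others being *FOXF1*, *FOXC2* and *FOXL1*.

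A pair of partner fragments that recur in the results are shown in the same way, as the 300 bases at their centre on the plus strand of GRCh38. The first, chr6:1615730-1616029, is intergenic, lies next to the *FOXC1* fragment and had the highest score of all *FOXF2* contacts. The second, chr15:60324822-60325121, is intergenic with *ANXA2* as the nearest coding start, and was contacted by *FOXB1* in both cell types.
FOXF2 partner: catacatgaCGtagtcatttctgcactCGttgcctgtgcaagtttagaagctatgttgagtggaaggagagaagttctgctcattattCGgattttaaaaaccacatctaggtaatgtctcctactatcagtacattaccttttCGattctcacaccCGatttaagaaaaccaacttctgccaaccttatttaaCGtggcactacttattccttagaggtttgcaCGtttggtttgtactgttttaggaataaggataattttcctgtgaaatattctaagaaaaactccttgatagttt
FOXB1 partner: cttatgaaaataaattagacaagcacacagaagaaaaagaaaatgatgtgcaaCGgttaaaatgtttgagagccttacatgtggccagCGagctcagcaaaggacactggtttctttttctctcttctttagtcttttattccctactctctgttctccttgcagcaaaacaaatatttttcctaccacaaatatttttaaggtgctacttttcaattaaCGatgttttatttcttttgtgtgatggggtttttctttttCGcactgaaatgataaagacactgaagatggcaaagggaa
They held 7 and 4 CG dinucleotides, against a median of 2 at the centres of 18155 unbaited fragments of the lists on the members' chromosomes. The forkhead core was in neither, and in 4.39% of those centres.

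In the lists, the 7 baits had 81 naive and 99 primed contacts, a ratio of 1.22 (95% counting interval 0.911 to 1.64), so the totals did not differ beyond counting error. Both lists held 37 of these contacts as identical fragment pairs, which is 45.7% of the naive ones (95% Wilson interval 35.3 to 56.5) and 37.4% of the primed ones (28.5 to 47.2). Over all interactions of the series these shares were 49.6% and 44.2%. Up to 1 Mb the baits mostly met flanking, unbaited DNA in both cell types, whereas all 15 contacts over 1 Mb were in primed PSCs, 15.2% of the primed contacts (9.40 to 23.5), and the naive count of 0 allows a share of up to 3.70% by a limit of 3 counts, or 4.53% by the upper Wilson bound. Across the series 6.75% of primed and 1.69% of naive interactions within chromosomes were over 1 Mb.

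By gene, *FOXF2*, which acts in craniofacial mesenchyme, had 3 naive and 14 primed contacts, a ratio of 4.67 (1.34 to 16.2). Several of the primed contacts were adjacent fragments beside *FOXC1*, which the interval counts as separate, so it is too narrow. *FOXF1*, a regulator of lung mesenchyme and vessels, had 4 and 9, a ratio whose interval included 1 (0.693 to 7.31). *FOXL1*, of the gut mesenchyme, had 6 and 10, and *FOXE1*, needed for the thyroid, 15 and 21. *FOXC2*, a lymphatic vessel regulator, was the best connected of them with 40 naive and 34 primed contacts, *FOXC1*, of eye and mesoderm development, had 6 and 5, and *FOXB1*, of the diencephalon, had 7 in each. Thus *FOXF2* and *FOXF1*, 2 of the 7 baits, had at least 2 times as many contacts in primed PSCs, and none had so in naive PSCs. Among the 4869 baits with at least 10 distinct partners, 27.4% and 17.0% met these limits. A contact over 1 Mb was present in primed PSCs for 4 of the 7 baits, *FOXF2*, *FOXC1*, *FOXF1* and *FOXE1*, against 9.73% of all baits, and in naive PSCs for none of them, against 3.55%. These background shares run over all 15982 baits and were not limited to those with at least 10 distinct partners, which all 7 had.

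**Figure D1:**
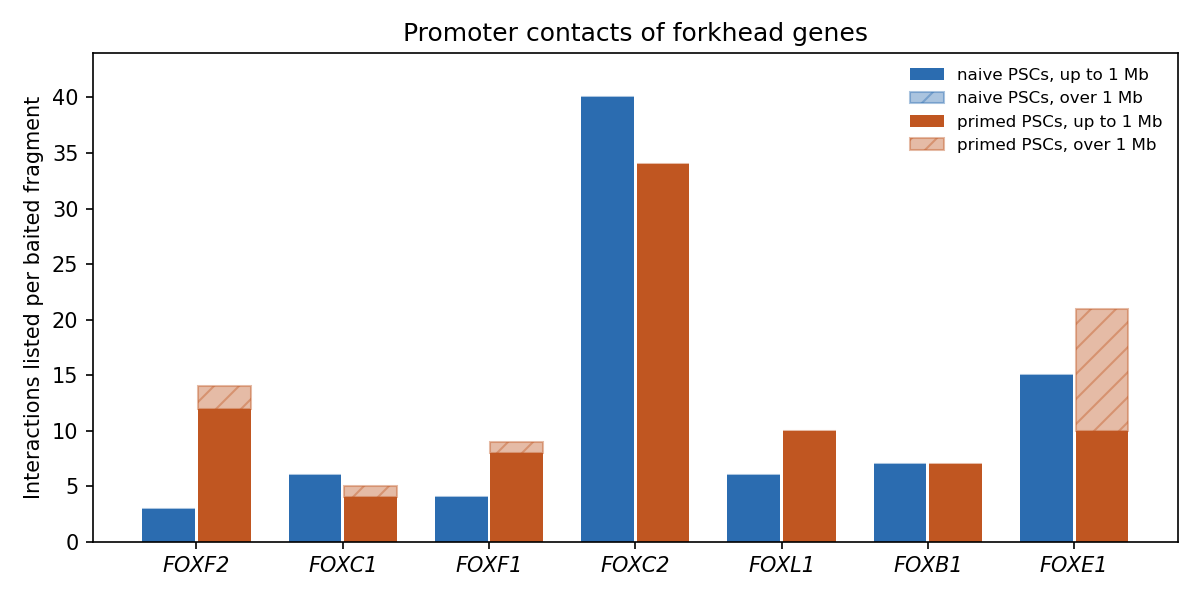
Number of interactions listed for the baited fragment of each gene in naive (blue) and primed (orange) PSCs, with hatched parts for contacts over 1 Mb. *FOXF2* rises from 3 to 14 and hatched parts are present only in the primed bars of *FOXF2*, *FOXC1*, *FOXF1* and *FOXE1*.

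On chromosome 6, *FOXF2* and *FOXC1* lie 222 kb apart, at chr6:1387307-1391329 and chr6:1607337-1615636, and *FOXQ1* lies on the other side of *FOXF2*, at chr6:1303294-1317946. In primed PSCs the *FOXF2* and *FOXC1* fragments were joined by a contact with a score of 10.90 and 42 reads, and this pair was absent from the naive list. *FOXF2* also met a run of 7 fragments next to *FOXC1*, starting at the one whose sequence is given above (score 17.86, 41 reads). The run reached the 3′ part of *GMDS*, a gene of GDP-fucose synthesis, with scores between 5.28 and 17.86. None of the run was listed for naive PSCs. *FOXC1* met in primed PSCs, besides *FOXF2*, the upstream fragment that carries *FOXF2-DT* (score 5.12, 17 reads).

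The Hi-C counts gave the same pair of loci at lower resolution, in bins of 100 kb in which *FOXF2* and *FOXQ1* share a bin. The bin pair of *FOXF2* and *FOXC1* held 23 di-tags in naive PSCs (exact 95% Poisson interval 14.6 to 34.5) and 131 in primed PSCs (110 to 155). Relative to the mean of chromosome 6 at this distance, the naive count was 0.191 and the primed count 0.879. These intervals cover counting error only, and with 1 Hi-C library per cell type the difference has no replicate check. Counts at or below these were found in 4.14% of the naive and 48.8% of the primed bin pairs listed at this distance on the chromosome. The comparison was added after the data were seen. The di-tags of each bin with its neighbours up to 500 kb differed far less, with 976 and 1026 for the *FOXF2* bin and 1734 and 1927 for the *FOXC1* bin in naive and primed PSCs. PCHi-C libraries were captured from Hi-C library DNA, so these Hi-C counts are not known to be independent of the lists. On chromosome 16 the 3 genes fell in 1 bin and could not be told apart.

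In naive PSCs, *FOXF2* and *FOXC1* pointed away from each other. All 3 naive contacts of *FOXF2* lay upstream of it, 590 to 804 kb away, 1 in an intron of *EXOC2* and 2 outside that gene. The strongest of the 3 (score 10.12, 15 reads) was kept in primed PSCs (9.94, 13 reads). All 6 naive contacts of *FOXC1* lay 486 to 585 kb downstream in introns of *GMDS*, and 1 of them, at 585 kb, was listed in primed PSCs too. *FOXF2* also reached *IRF4*, a factor of lymphocytes and melanocytes, in primed PSCs (score 6.98, 12 reads), at 996 kb, just inside the 1 Mb limit.

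The long-range contacts of primed PSCs were few in reads and led mostly to other developmental genes. They rested on 4 to 7 reads each, with a median of 5, against a median of 17 for all primed contacts of these baits, and their median score was 10. *FOXF2* met *TFAP2A*, a neural crest factor, at 9029 kb (score 12.69, 6 reads), and both *FOXF2* and *FOXC1* met a second baited fragment in the body of *TFAP2A* (scores 5.49 and 5.23, 4 reads each). *FOXF1* met *ZFHX3*, a zinc finger homeobox gene, at 13452 kb (score 18.03, 6 reads). The same *ZFHX3* bait contacted in primed PSCs the unbaited fragment with the upstream *FOXL1* start (score 6.53, 4 reads).

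*FOXE1* had 11 of the 15 long contacts. Upstream it met *FOXB2*, another forkhead gene, at 20835 kb (score 11.93, 5 reads), *BARX1* at 3893 kb (5.74, 5 reads) and a fragment in *PTCH1*, the Hedgehog receptor gene, at 2342 kb (score 10, 7 reads). Downstream it met a pair of fragments at *NR4A3*, the nearer at 1971 kb, a pair at the LIM-homeobox gene *LHX6* at 24370 and 24374 kb (scores 19.83 and 16.98, 6 reads each), a pair at *LHX2* (14.07 and 6.88) and an intron of *LMX1B* at 28772 kb (14.39, 5 reads). Adjacent fragments at one locus share that locus and are not separate observations. Of the 14 distinct partner fragments over 1 Mb, 9 had within 20 kb the start of a gene on a list of developmental transcription factors, against 10 of 117 partners up to 1 Mb. The list was written with earlier results of these data known. Among baited partners, 7 of 12 in primed PSCs and 0 of 5 in naive PSCs carried a promoter of that list, which 1.85% of all baited fragments did. The 7 include *FOXF2* and *FOXC1*, which are members themselves and partners of each other, so the choice of members bears on this share.

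In the primed Hi-C library, the bin pairs of all 15 long contacts held di-tags, between 1.63 and 36.9 times the mean of their chromosome at that distance, with a median of 4.24. They made 11 distinct bin pairs. For 8 contacts the mean was under 1 di-tag, so that any count at all exceeded it. The most di-tags for such a contact were the 15 of *FOXF1* with *ZFHX3*, against a mean of 0.407, and the fewest were the 1 of *FOXE1* with *LHX2*. The naive Hi-C file leaves out most bin pairs at these distances, and none of the 15 was in it.

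**Figure D2:**
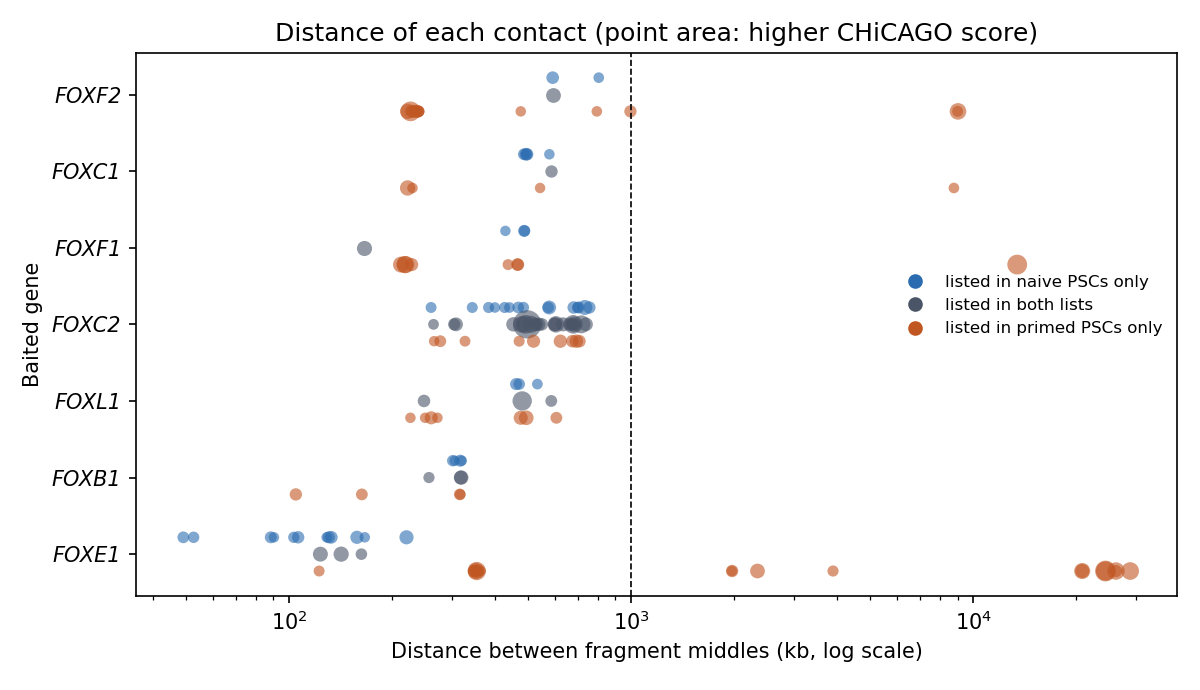
Distance between the fragment middles (kb, log scale) for each contact of the 7 baits, coloured by the list that holds it, with a larger point for a higher score and a dashed line at 1 Mb. All points beyond the line, 15 in number, are primed only, and 11 of them belong to *FOXE1*.

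Up to 1 Mb from *FOXE1*, 12 contacts were in naive PSCs only, 7 in primed PSCs only and 3 in both. All 15 naive contacts lay upstream within 220 kb, over the lncRNA *PTCSC2* and at *XPA*, a DNA repair gene (score 8.09, 27 reads), and at the shared fragment of *NCBP1* and *TSTD2* (9.24, 22 reads). In primed PSCs both of these promoters were no longer listed, and the upstream contacts extended to *TMOD1*, a tropomodulin gene, at 354 kb (15.44, 51 reads) and 5 more fragments 347 to 363 kb away.

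On chromosome 16, *FOXF1* at chr16:86509226-86512466 faced upstream while *FOXC2* at chr16:86558347-86569633 faced mostly and *FOXL1* at chr16:86578419-86582405 wholly downstream. All contacts of *FOXF1* were upstream in both cell types. Its fragment also carries the start of the divergent lncRNA *FENDRR*, and that of *FOXC2* the start of *FOXC2-AS1*, so neither can be assigned to one gene. In primed PSCs *FOXF1* met 4 adjacent fragments over *LINC01081* and *LINC02135*, 212 to 228 kb away, with scores of 8.04, 13.80, 13.37 and 11.73, none of which was in the naive list. The baited fragment of *LINC00917* at 166 kb was met in both cell types, with scores of 8.75 and 10.57.

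*FOXC2* kept 25 of its 49 distinct contacts in both cell types. All 40 naive ones and 32 of 34 primed ones ran downstream, in a broad field up to 755 kb away that ended in *C16orf95*. The strongest in both cell types was the fragment of *LINC02181* at 497 kb, with 44 reads and a score of 26.73 in naive PSCs and 58 reads and 37.08 in primed PSCs. *FOXL1* had its strongest contact in both cell types on this same fragment (10.94 and 17.24). Of 13 distinct partners of *FOXL1*, 10 were also partners of *FOXC2*, which is 76.9% of the former and 20.4% of the latter. The 2 upstream contacts of *FOXC2* were in primed PSCs, and both ended on fragments that *FOXF1* met too.

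*FOXB1* at chr15:60002298-60012325 had 7 contacts in each cell type, 3 of them shared. The shared partners were a fragment 256 kb upstream and a pair at 318 and 319 kb downstream, towards *ANXA2*, whose scores were 5.27 and 9.08 in naive PSCs and 8.86 and 9.50 in primed PSCs. The contacts with *BNIP2* and its flank, 316 to 320 kb upstream, were in the naive list only (scores of 5.01 and 6.70).

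The promoters with the most similar partners were few. By the Jaccard index of partner fragments over both lists, the closest were *ANXA2* to *FOXB1* (0.231, with 3 shared partners), *IRF4* to *FOXC1* (0.167, with 2), *LINC00917* to *FOXF1* (0.130, with 3), *MAK* to *FOXF2* (0.087, with 2) and *LMX1B* to *FOXE1* (0.071, with 3). Next came *EEF1E1* (0.1) and *MAK* (0.056) for *FOXC1*, *TFAP2A* (0.083) and *EEF1E1* (0.063) for *FOXF2*, a pair of *ZFHX3* baits (0.1 and 0.077) for *FOXF1*, *GTF2A2* (0.067) for *FOXB1*, and *HEMGN* (0.061) and *LHX2* (0.048) for *FOXE1*. These baits lie on the same chromosome as the gene they resemble, and neighbours share nearby fragments. For *FOXC2* it was *LINC00917* and *ZFHX3* with 1 shared partner each, and no bait outside the 9 genes shared a partner with *FOXL1*.

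H3K4me1 was taken as the mean log2 RPM of the 500 bp tiles on 1 promoter fragment per gene, the baited fragment wherever it was listed. It was higher in primed PSCs for *FOXF2* and *FOXL1*, and was not called for the other 7 genes. Across the genome 26.6% of 153548 fragments tested were higher and 25.2% lower, so 2 of 9 is near the background. The median difference of the 9 was 0.30, beside 0.02 over all fragments tested. At *FOXF2* the naive values were -1.03 and -1.14 and the primed values 0.47, 0.35 and -0.05. The groups did not overlap, and the difference of 1.34 (SE 0.39) had an adjusted p = 0.011 by limma. Without naive replicate 1 or naive replicate 2 this adjusted p was 0.077 and 0.088.

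At the baited *FOXL1* fragment the naive values were -3.96 and -2.83 and the primed values -1.05, -1.05 and -0.65. Naive libraries held 11 and 4 reads there, near the value of an empty tile, and primed libraries 56, 51 and 182. The difference of 2.48 (SE 0.36, adjusted p = 1.5e-04 by limma) depends on that floor, and edgeR on the reads, a test added after the data were seen, gave 3.60. The neighbouring fragment with the upstream *FOXL1* start rose by 2.39 (SE 0.38), from -2.49 and -1.80 to 0.20, 0.27 and 0.26.

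*FOXD3*, a neural crest factor that is also active in pluripotent cells, had the lowest difference of the 9, -0.96 (SE 0.39, adjusted p = 0.055 by limma). Its naive values were 0.35 and 0.22 and its primed values -0.34, -0.97 and -0.74. The groups did not overlap. The threshold of 0.05 was missed, while centring, a fit without trend, edgeR or leaving out primed replicate 1 brought the adjusted p below it. The *FOXC1* fragment stood at -0.19 and -0.21 in naive and -0.38, -0.94 and -0.97 in primed PSCs, and that of *FOXE1* at 0.12 and -0.09 against -0.50, -0.22 and -0.44. Neither was called, and in neither did the groups overlap. With 2 naive and 3 primed libraries, separation of the groups is given as a description and is no test. *FOXF1* stood at -0.89 and -0.73 against -0.05, -0.07 and -0.29, also without a call (adjusted p = 0.148 by limma). For *FOXQ1*, *FOXC2* and *FOXB1* the libraries of both cell types overlapped, with differences of 0.30, 0.42 and 0.02. The promoter of a later *FOXB1* start reaches an unbaited fragment at chr15:60029521-60035970, which was called higher in primed PSCs. Its naive values were -3.08 and -2.57 and its primed values -1.17, -1.25 and -1.42. The difference was 1.55 (SE 0.31, adjusted p = 1.2e-03 by limma).

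**Figure D3:**
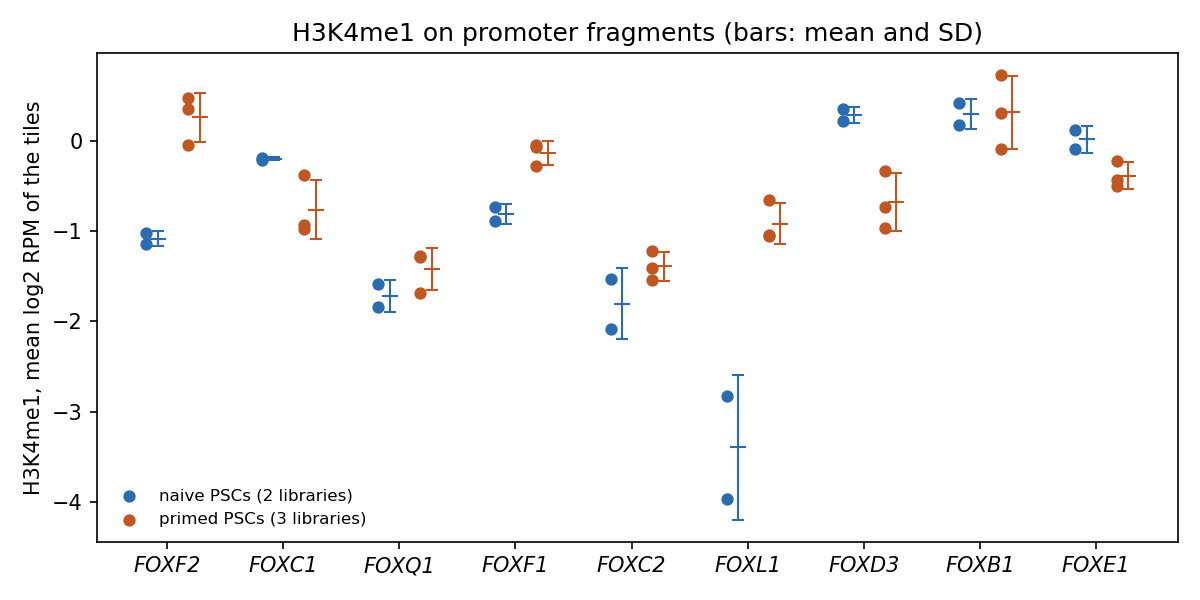
H3K4me1 on the promoter fragment of each gene (mean log2 RPM of its tiles) in every library, naive in blue and primed in orange, with the mean and SD beside the points. *FOXF2* and *FOXL1* lie higher in primed PSCs, while *FOXD3*, *FOXC1* and *FOXE1* lie lower in the primed libraries without passing the test.

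Single tiles showed where on these fragments the mark differed. Of 93 tiles tested on the 9 fragments, 11 were higher and 14 lower in primed PSCs, against 26.0% and 26.1% of all tiles tested. With the fragment of the upstream *FOXL1* start added, 19 were higher and 14 lower of 102. Most of the called tiles were above a log2 RPM of 0, the limit for testing, in one cell type only, so their counts are a description. The lower ones were mostly at *FOXD3*, where 11 of 33 tested tiles fell. Of these, 10 lay at -18.3 to -6.82 kb from the start, and the tile at -7.32 kb went from 1.98 and 1.64 in naive to 0.55, -0.98 and 0.02 in primed PSCs. The *FOXD3* fragment also carries promoters of *FOXD3-AS1*, *LINC00466* and *MIR6068*. Promoters of other genes also lie on the fragments of *FOXE1* (*PTCSC2*), *FOXB1* (*ENSG00000289162*) and *FOXF2* (*MIR6720*). Neither the mark nor the contacts of these fragments can therefore be assigned to 1 gene. At *FOXL1* every called tile passed the filter through the primed libraries alone, so the number that rose is no measure of the fragments, whose means above cover all their tiles. The tile 1.38 kb after the upstream start changed most, from -4.45 and -2.91, at or next to an empty tile, to 1.81, 1.66 and 1.66. At *FOXF2*, 2 of 5 tiles rose, at -1.33 and 1.67 kb from the start. *FOXB1*, whose baited fragment did not differ in its mean, had 4 higher tiles of 18 there, from 4.02 to 8.02 kb after its start. The 11 higher tiles became 6 without naive replicate 2, primed replicate 1 or primed replicate 3 and 7 without naive replicate 1, and the 14 lower ones became 4 and 6 without naive replicate 1 and 2 and 9 without primed replicate 3.

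**Figure D4:**
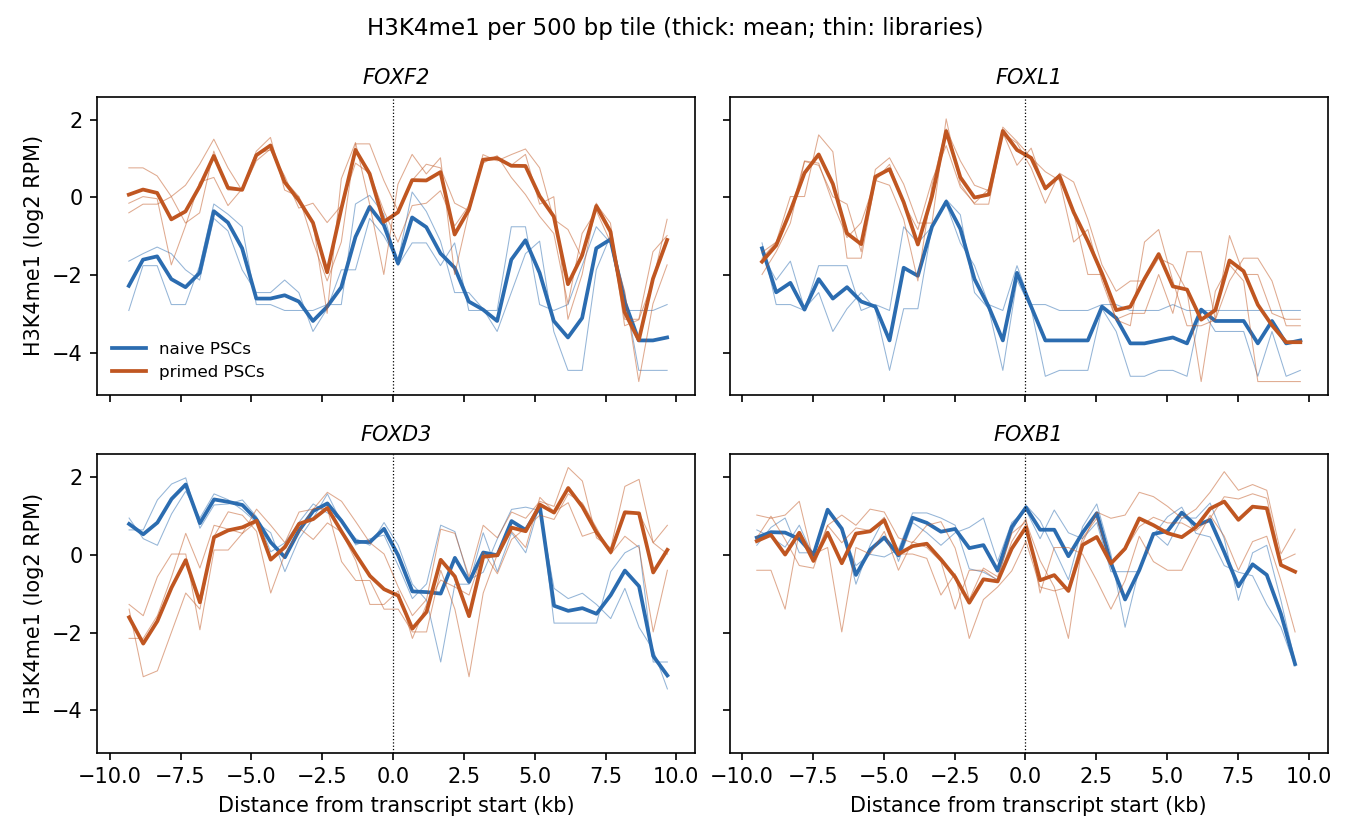
H3K4me1 (log2 RPM per 500 bp tile) around the start of *FOXF2*, *FOXL1* (its downstream start), *FOXD3* and *FOXB1*, with a thick line for the mean of the naive (blue) or primed (orange) libraries and thin lines for each library. Primed lies above naive around the starts of *FOXF2* and *FOXL1*, and below it on the far upstream side of *FOXD3*, while it lies above it far downstream of *FOXD3*, beyond the promoter fragment.

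The 7 baits had 131 distinct partner fragments, of which 60 passed the filter on low values. Of those, 24 were higher in primed PSCs (40%, against 26.6% of all fragments tested), 6 were lower (10%, against 25.2%) and 30 were not called. The partners include the *FOXF2* and *FOXC1* fragments, which are members too, and runs of adjacent fragments, which are not separate observations. Since a fragment can pass through the cell type in which it is high, the difference over all 131 is given as well, with a median of 0.34, beside 0.04 over all fragments of the genome. Partners of naive-only contacts were not lower as a rule, with 6 higher (46.2%) and 4 lower (30.8%) of 13 tested. Of 31 tested partners of primed-only contacts, 12 were higher (38.7%) and 1 was lower (3.23%). Over all partners of each class, tested or not, the median difference was 0.03 for naive-only and 0.58 for primed-only contacts. Without naive replicate 1, which leaves a single naive library, 13 partners were higher.

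At *FOXC1* the largest rise was on an intronic *GMDS* fragment 577 kb away, at -3.11 and -2.14 in naive and 1.31, 0.64 and 0.48 in primed PSCs (3.44, SE 0.43), although the contact was listed in naive PSCs only. The *FOXF2-DT* fragment rose by 1.97 (SE 0.41). Another intronic *GMDS* fragment, contacted at 486 kb in naive PSCs only, fell from -1.63 and -1.21 to -2.93, -2.86 and -3.25.

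At *FOXF2*, the fragment next but one to *FOXC1* stood at -0.92 and -1.36 in naive and 1.63, 0.82 and 1.36 in primed PSCs (2.41, SE 0.42, adjusted p = 4.5e-04 by limma). The fragment between them, whose sequence is given above, was not called (1.13, SE 0.45, adjusted p = 0.051 by limma). An intergenic partner 590 kb upstream that was contacted in naive PSCs only rose by 2.41 (SE 0.38). *TFAP2A* did not differ (0.08, SE 0.41), with naive values of 0.58 and 0.12 and primed values of 0.84, 0.08 and 0.37.

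At *FOXF1*, an intergenic partner 437 kb upstream, contacted in primed PSCs, went from -2.36 and -2.25 to 0.52, 0.45 and 0.51. The *LINC00917* fragment, met in both cell types, went from -2.80 and -2.37 to 0.27, -0.88 and 0.04. Both groups of libraries were apart in each case. The fragment over *LINC01081* that *FOXF1* and *FOXC2* met in primed PSCs rose by 1.48 (SE 0.40), and another partner of *FOXC2* at 383 kb by 1.44 (SE 0.36). The *LINC02181* fragment that led for *FOXC2* and *FOXL1* stood at -2.52 and -2.14 in naive PSCs, with a difference of 0.03, and was below the filter. The 5 tested *FOXL1* partners were not called, with differences between -0.16 and 0.84.

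At *FOXB1* the pair of shared downstream partners rose by 1.90 (SE 0.47) and 1.11 (SE 0.41). On the first, shown above, the values went from -0.08 and -0.96 to 2.02, 0.75 and 1.35. On the naive-only partner beside *BNIP2* the values fell from 0.25 and -0.23 to -3.20, -3.03 and -2.24, and the shared partner 256 kb upstream fell by 1.11 on the log2 scale (SE 0.32). At *FOXE1*, both *LHX6* fragments rose, the first from -2.55 and -2.69 to -1.09, -0.76 and -0.96, and so did the fragments of *LMX1B* (1.52, SE 0.41) and *BARX1* (0.86, SE 0.32). *XPA* fell from 0.28 and -0.03 to -1.57, -1.37 and -1.69, and the *TMOD1* intron by 1.67 on the log2 scale (SE 0.37), although it was met in primed PSCs only. At *FOXB2* the mark stood at 0.47 and 0.28 in naive and 0.52, 0.23 and 0.29 in primed PSCs, with a difference of -0.03 (SE 0.39).

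**Figure D5:**
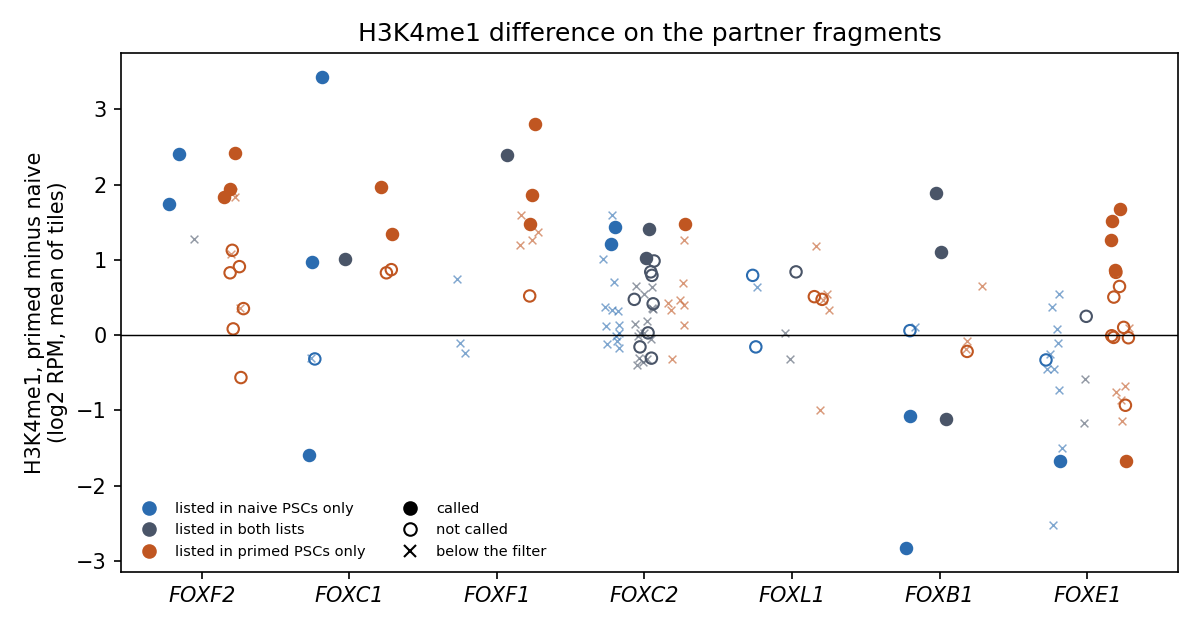
Difference in H3K4me1 (primed minus naive, log2 RPM as the mean of tiles) on each partner fragment of the 7 baits, coloured by the list that holds the contact, filled where called, open where not called and a cross where below the filter. Called fragments are all above 0 for *FOXF2*, *FOXF1* and *FOXC2* and lie on both sides for *FOXB1* and *FOXE1*.

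Of 35 other forkhead genes, 24 had a baited fragment, with 130 naive and 290 primed contacts in all. More contacts were listed in primed PSCs for 15 of these genes and in naive PSCs for 6. Most primed contacts belonged to *FOXP2* (74, of which 50 over 1 Mb), followed by *FOXA1* (34, of which 16), and most naive ones to *FOXP2* and *FOXN2* (22 each). The *FOXP2* counts are summed over 2 baited fragments, while *FOXA1* and *FOXN2* had 1 each. Contacts over 1 Mb were present for 9 of the 24 genes in primed PSCs and for 2 in naive PSCs. Of the 21 with a tested fragment, H3K4me1 was higher in primed PSCs at 3, *FOXA1*, *FOXA2* and *FOXS1*, and lower at 6, beside 26.6% higher and 25.2% lower among all fragments tested.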

How the data were processed

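Groups and replicate numbers came from the labels. ChIP-seq for NANOG and SOX2 and its input were not used here. PCHi-C reads were mapped by the authors on GRCh38 with HiCUP and combined over replicates within CHiCAGO, and they deposited the CHiCAGO score and a rounded, combined read number of each pair, which is not a raw count. The mark of each line (+, - or .) told baited from unbaited fragments. It matched the strand of coding starts for 47.7% of 10399 fragments, so it was not read as gene strand. Hi-C files hold the deposited di-tag counts per pair of 100 kb bins. H3K4me1 values are log2 RPM in 500 bp tiles, which the authors computed in SeqMonk after trimming with Trim Galore and mapping with Bowtie2 (the submitters' processing notes name Trim Galore 0.4.5 and 0.5.0 and Bowtie2 2.2.7 and 2.3.2).

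Tiles above a log2 RPM of 0 in at least 2 libraries, and the mean over all tiles of each fragment with at least 1 such tile, were tested with limma 3.58.1 (lmFit, eBayes with trend, R 4.3.3), with Benjamini-Hochberg adjustment and a threshold of 0.05. The fit was also run on simulated data, where a first simulation with few changed fragments among all of them recovered none. The simulation, but not the fit, was then changed to fewer fragments and some larger changes. Its outcome is therefore no measure of recovery in these data. The labels do not say which libraries came from separate cultures, so p-values measure the spread between libraries. Shares carry 95% Wilson and ratios 95% counting intervals. Both treat each fragment pair as separate, which adjacent fragments at 1 locus are not. The genes, lists, tests and rules were chosen with earlier results of these data known. Named were all 9 genes, up to 5 baited partners per gene and cell type by score, the 3 baits most alike, the 2 called partners changing most per direction, and the 3 other forkhead genes with the most contacts per cell type. Some genes that this rule or the marker lists name are not reported here. Other genes and fragments were named after their values were seen. Alternatives covered scores, reads, distance limits, loci, filters, centring, the trend, log2 of the mean RPM, the replicate block and left-out libraries. The Hi-C bin pair of *FOXF2* and *FOXC1*, edgeR 4.0.16 on whole reads recovered from the log2 RPM (100% whole within 0.01, with 49799 fragments higher and 44554 lower), and leaving out loci for long contacts were added after seeing the data.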

Additional observations from a re-analysis of the deposited data

How the results depend on the processing

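The ratio of primed to naive contacts stayed between 1.06 and 1.48 when a locus was left out, with at least 10 reads, or with equal numbers of top-scoring interactions, but rose to 2.36 with a score of at least 10 (11 and 26 contacts). The 15 primed contacts over 1 Mb became 8 with that score, 0 with at least 10 reads, 4 without the chromosome 9 locus (an alternative chosen after seeing the data), and 44 with a limit of 500 kb, where naive PSCs had 31. With both ends allowed to differ by 10 kb, 72.8% of naive and 53.5% of primed contacts were shared.

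For H3K4me1, no filter gave 66987 higher fragments in place of 40887. Leaving out 1 library gave 24330 (without naive replicate 1) to 44919 higher and 28313 to 40643 lower fragments, 1 to 2 higher and 0 to 1 lower promoter fragments, and 13 to 29 higher partners. The lower promoter fragment was *FOXD3*, 1 with centring, without trend and with edgeR too. At the baited *FOXB1* fragment the difference ranged from -0.18 (without primed replicate 1) to 0.22 and was -0.097 without naive replicate 1, not called in any of these. A log2 RPM above 1 left 29780 higher and 24888 lower tiles in all and 5 and 3 on the promoter fragments. Leaving out 1 library gave 88587 to 137483 higher and 65670 (without naive replicate 1) to 134772 lower tiles, and 6 to 14 higher and 4 to 20 lower ones on the promoter fragments.

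Replicate numbers 1 and 2 are shared by both cell types, but the labels name no shared batch, and deviations of naive 1 correlated at 0.084 with primed 1 and -0.100 with primed 2. With the replicate block, 32182 fragments were higher and 28310 lower, and lower tiles on the promoter fragments went from 14 to 9. The block changed no call at the 9 promoter fragments. The cause of these shifts was not tested. Depth limits the long contacts, at 4 to 7 reads, and the naive side of *FOXL1*, at 4 and 11 reads.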
